A study of Mus musculus with 8 samples.

Results

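The response to dTAG-13 that the DHX35-dTAG and GPATCH1-dTAG lines had in common was measured in all 8 of the 8 RNA-seq libraries of the series. The 4 libraries of cells in dTAG-13 were set against the 4 libraries of cells in DMSO, with the line as a covariate, and the comparison took in every gene with enough reads, 16371 of the 55291 genes listed. The cells were mouse embryonic stem cells, named as E14 in the labels, while the growth protocol mentions R1 cells. In each line the endogenous DHX35 or GPATCH1 carries the FKBP12 F36V tag. The 4 groups were the DHX35-dTAG line in DMSO, the DHX35-dTAG line in 200 nM dTAG-13, the GPATCH1-dTAG line in DMSO and the GPATCH1-dTAG line in 200 nM dTAG-13, each exposed for 4 h and each with 2 libraries. All groups were grown in serum with LIF, the MEK inhibitor PD0325901 and the GSK3 inhibitor CHIR99021. The lines were grown from single colonies, the labels do not name the clones, and nothing states that the 2 libraries of a group came from separate cultures, so that p-values measure the spread between these libraries only. No line without the tag was analysed here, so an effect of the compound and an effect shared by the loss of either protein cannot be told apart.

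dTAG-13 binds the tag with one end and the ubiquitin ligase receptor cereblon with the other, so that the tagged protein is marked for the proteasome. DHX35 is an RNA helicase and GPATCH1 the G-patch protein that activates it, and the pair act in the rejection of faulty splicing substrates. Cholesterol synthesis, which takes up much of the results below, is under feedback control: when membrane sterol is low, SCAP escorts the SREBP transcription factors out of the endoplasmic reticulum, they are cleaved, and they switch on the genes of sterol synthesis and uptake, while INSIG proteins hold SCAP back when sterol is plentiful.

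Total counts ranged from 12014203 to 14994173 per library. DMSO library 1 of the DHX35-dTAG line stood apart, with a mean correlation of 0.980 with the other libraries, against 0.991 to 0.992 for the others, and with 0.366% of its counts on small RNA genes, against 0.120% to 0.143%. The 2 most highly counted genes, Gm23935 and CT010467.1, took between 1.27% and 20.9% of the counts, and their share was higher in dTAG-13 in the DHX35-dTAG line and lower in dTAG-13 in the GPATCH1-dTAG line. The 8 markers of embryonic stem cells summed to between 5026 and 5192 CPM (TMM-scaled counts relative to library size) in DMSO and to between 5083 and 5313 CPM in dTAG-13. Those of trophectoderm summed to at most 27.3 CPM, those of primitive endoderm to at most 7.56 CPM and those of fibroblasts to at most 5.76 CPM, with Lum at 0 counts and Dcn, Col1a2, Col3a1 and Elf5 at no more than 2 counts in any library. In the line that carries its tag, Dhx35 was at 72.3 and 80.4 CPM in DMSO and at 84.8 and 79.5 CPM in dTAG-13, a log2 fold change (dTAG-13 minus DMSO) of 0.11. Gpatch1 was at 7.31 and 6.90 CPM in DMSO and at 7.06 and 7.20 CPM in dTAG-13 in the GPATCH1-dTAG line, a log2 fold change of 0.00. The libraries of the treatments overlapped for both genes. These values bear on the mRNA only, as dTAG-13 removes the protein.

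Across both lines, the lowest p-values belonged to genes of the sterol lists, Insig1, Cyp51, Fdft1 and Msmo1 among them, all higher in dTAG-13, but no gene passed the adjusted threshold. Of the 16371 genes, 0 (0%) had an adjusted p under 0.05 by the edgeR quasi-likelihood F test, adjusted by Benjamini-Hochberg, 587 had an unadjusted p under 0.05, DESeq2 called 4 genes and limma-voom with sample quality weights called 9. Of the 587 genes, 197 were higher in dTAG-13 (1.2% of the genes tested) and 390 were lower (2.38%). The median standard error of a log2 fold change was 0.12, and for 14714 genes (89.9%) the 95% interval lay within 1 of 0 on the log2 scale. For 10278 genes (62.8%) it lay within 0.5.

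Over the whole transcriptome, the responses of the lines were not positively correlated. The log2 fold changes of the 16371 genes in the lines had a Pearson correlation of -0.15 and a Spearman correlation of -0.09 across genes, which share libraries and depth and are not independent replicates. Among the 3274 genes with the highest mean CPM, Pearson's r was -0.73 and Spearman's rho -0.27. An unadjusted p under 0.05 in each line, in the same direction, was found for 27 genes (0.165% of the genes tested). Of these, dTAG-13 libraries were higher for 17 and lower for 10. Another 17 genes met that threshold in each line in opposite directions, among them Gm24270, Lars2, Mir6236, Gm23935 and CT010467.1. Replicates of some of these lay far apart. In the GPATCH1-dTAG line, the 2 DMSO libraries were at 354.8 and 11660 CPM for Lars2 and at 30.5 and 1667 CPM for Mir6236. Of the 17 that were higher in both, 11 were on the lists of cholesterol synthesis enzymes or of sterol sensing and uptake genes. The plot of the lines against each other shows these genes in the upper right quadrant.

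**Figure D1:**
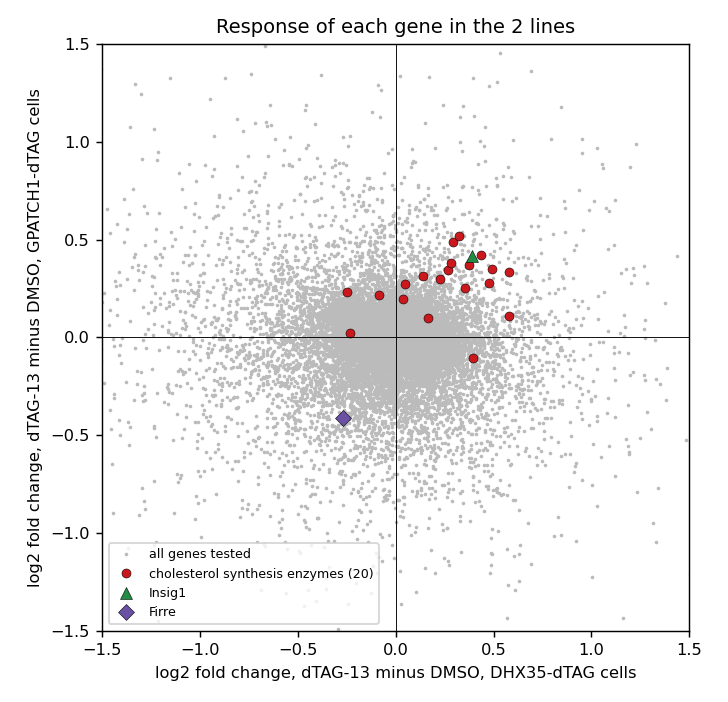
Each point is a gene, with its log2 fold change (dTAG-13 minus DMSO) in the DHX35-dTAG line on the x axis and in the GPATCH1-dTAG line on the y axis. Of the 16371 genes, 101 lie outside the axes. The cloud of all genes is centred on 0, while Insig1 and most of the 20 cholesterol synthesis enzymes lie above 0 in both lines and Firre lies below 0 in both.

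Insig1 encodes a protein that retains SCAP and is itself a target of SREBP. It spans 28071363 to 28078662 of chromosome 5 of GRCm38, plus strand. Its level was 64.2 and 63.3 CPM in DMSO and 83.9 and 83 CPM in dTAG-13 in the DHX35-dTAG line, and 65.4 and 62.5 CPM in DMSO and 86.6 and 84.1 CPM in dTAG-13 in the GPATCH1-dTAG line. The 4 dTAG-13 libraries lay close together and above the 4 DMSO libraries. The log2 fold change was 0.40 (standard error 0.05, 95% interval 0.28 to 0.52), a fold of 1.32, with an adjusted p of 0.16 by the edgeR quasi-likelihood F test, adjusted by Benjamini-Hochberg. Between 707 and 1398 reads per library stood behind it. In bulk RNA, more RNA per cell and more cells that express a gene cannot be told apart, here and in what follows.

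Cyp51, the lanosterol demethylase, spans 4081145 to 4104746 of chromosome 5, minus strand, where Akap9 overlaps it on the other strand. Its level was 47.4 and 45.9 CPM in DMSO and 61.2 and 65.3 CPM in dTAG-13 in the DHX35-dTAG line, and 48.3 and 52.1 CPM in DMSO and 64.4 and 70.1 CPM in dTAG-13 in the GPATCH1-dTAG line. As for Insig1, the libraries did not overlap in either line, which the rule for the named genes, given below, required. The log2 fold change was 0.43 (standard error 0.06, adjusted p = 0.21, edgeR).

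The call on these genes depended on the method, the expression filter and the library that stood apart. Without DMSO library 1 of the DHX35-dTAG line, the adjusted p (edgeR) was under 0.05 for 8 genes, all of them higher in dTAG-13, with Insig1, Cyp51, Fdft1, Msmo1, Hmgcs1 and Sqle among them. Limma-voom with sample quality weights, which gives less weight to a library that stands apart, called the same 8 genes, and Firre as lower. The 4 genes that DESeq2 called with all 8 libraries, which include Insig1 and Cyp51, were among them. Without the expression filter, edgeR called 80 genes (20 higher, 60 lower), and 9 of these were on the sterol lists, with Insig1, Cyp51, Fdft1, Msmo1, Hmgcs1 and Sqle among them. The lowest p-values of that setting belonged to other genes, Rprl3, CT010467.2 and Rnu3a first. Of the 80, 79 were also tested with the filter. Over 16 alternative settings, the log2 fold change of Insig1 stayed between 0.39 and 0.42 and that of Cyp51 between 0.41 and 0.46.

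The genes to be named were the 12 with the lowest p in each direction among those with a mean of at least 1 CPM and no overlap of dTAG-13 and DMSO libraries in either line. All 12 of those that were higher are protein coding, and 11 belong to the lists of sterol or fatty acid genes. Beside Insig1 and Cyp51, they included Fdft1 (squalene synthase), Msmo1 (methylsterol monooxygenase), Hmgcs1 (HMG-CoA synthase), Sqle (squalene epoxidase), Dhcr7 (a sterol reductase that acts last in one branch of the pathway), Lss (lanosterol synthase), Hsd17b7 (a sterol ketoreductase) and Spry4. Their log2 fold changes were 0.33, 0.39, 0.30, 0.30, 0.37, 0.26, 0.45 and 0.32 in that order, each with an adjusted p of 0.96 (edgeR). Annotated genes overlap Fdft1, Hmgcs1, Lss and Spry4 on the other strand, and since the strand setting of the counting is not given, reads of such partners cannot be told apart.

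**Figure D2:**
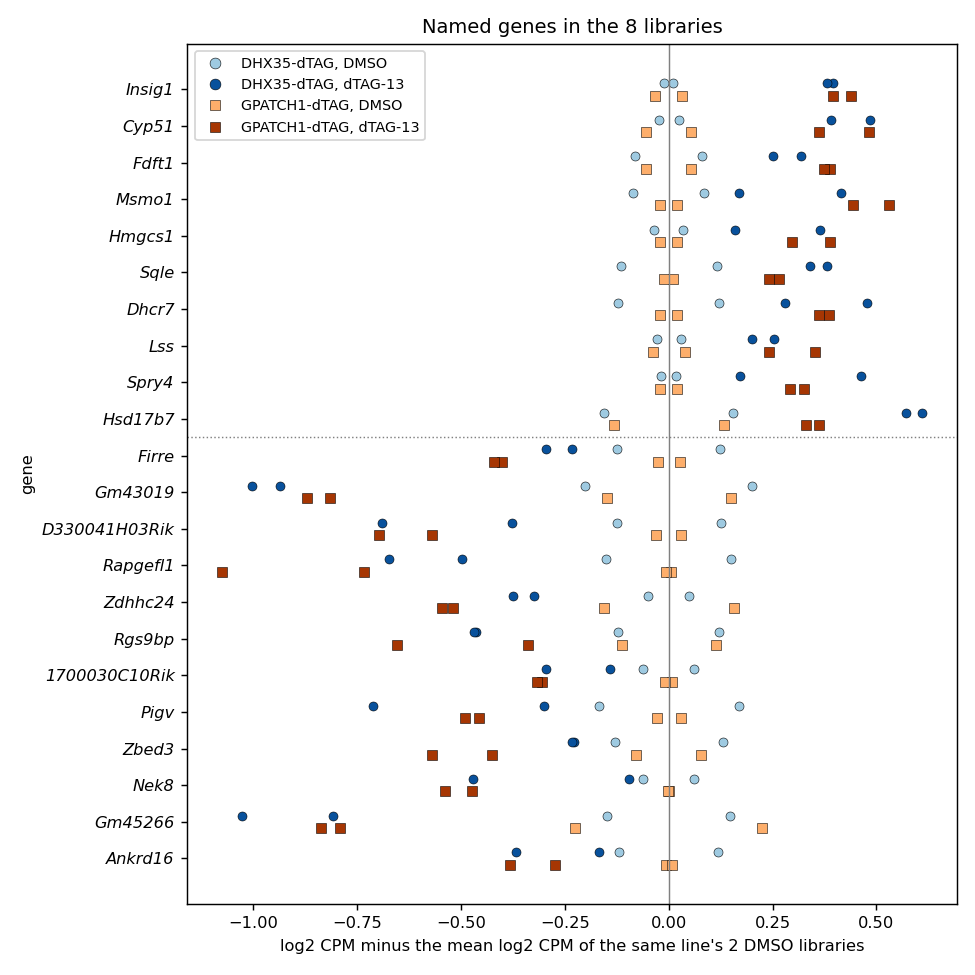
The x axis gives the log2 CPM of a gene in a library minus the mean log2 CPM of the same line's 2 DMSO libraries, for 10 of the 12 higher and for the 12 lower genes chosen by the rule (y axis, separated by the dotted line). Circles are DHX35-dTAG libraries and squares GPATCH1-dTAG libraries, light in DMSO and dark in dTAG-13, with 1 point per library. That dark and light points do not overlap within a line follows from the rule, while the distances differ, from a log2 fold change of 0.26 for Lss to 0.45 for Hsd17b7 among the higher genes and from -0.26 for 1700030C10Rik to -0.90 for Gm43019 among the lower ones.

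The stretches of 250 bases upstream of the RefSeq start are shown for 3 of these genes (GRCm38.p6), because sterol regulatory elements and CCAAT boxes, which bind SREBP and its partner NF-Y, are known in promoters of this pathway. Capitals mark matches to TCACNCCAC, one form of the sterol regulatory element, and to CCAAT, with ATTGG for a CCAAT on the other strand. They lie at chr13:119690101-119690350 on the plus strand for Hmgcs1, at chr5:28071162-28071411 on the plus strand for Insig1 and at chr5:4104698-4104947 on the minus strand for Cyp51.
Hmgcs1: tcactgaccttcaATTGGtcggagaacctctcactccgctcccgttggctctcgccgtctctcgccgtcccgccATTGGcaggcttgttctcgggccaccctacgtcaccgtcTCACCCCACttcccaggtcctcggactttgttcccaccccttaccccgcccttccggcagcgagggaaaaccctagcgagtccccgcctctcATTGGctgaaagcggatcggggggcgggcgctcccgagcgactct
Insig1: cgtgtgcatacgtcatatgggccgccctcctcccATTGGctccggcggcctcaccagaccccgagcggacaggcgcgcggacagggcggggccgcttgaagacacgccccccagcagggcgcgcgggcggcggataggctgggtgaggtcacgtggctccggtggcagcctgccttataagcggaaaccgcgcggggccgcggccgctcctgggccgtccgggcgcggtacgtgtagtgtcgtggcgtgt
Cyp51: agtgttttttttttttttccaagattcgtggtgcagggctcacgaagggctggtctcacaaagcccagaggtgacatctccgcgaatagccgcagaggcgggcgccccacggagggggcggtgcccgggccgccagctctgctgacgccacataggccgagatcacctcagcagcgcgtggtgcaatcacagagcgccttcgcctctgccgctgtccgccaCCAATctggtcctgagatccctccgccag
Searched on both strands, TCACNCCAC was present in 346 of 32851 RefSeq promoters (1.05%) and in 1 of 36 promoters of 26 sterol genes, that of Hmgcs1, 137 bases before the start. CCAAT was present in 33.8% of all promoters, in 35.7% of those of the genes tested and in 22 of the 36 (61.1%). For the 12 higher genes 9 promoters were found, of 7 genes, and 7 of the 9 held it (77.8%). For the lower genes 12 promoters were found, of 8 genes, and 5 of the 12 held it (41.7%). Several promoters can belong to 1 gene, and a match describes letters only.

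Of the 20 cholesterol synthesis enzymes, 18 had a log2 fold change above 0 across both lines, and 16 were above 0 in each line. The median of the list was 0.30 across both lines, 0.29 in the DHX35-dTAG line and 0.29 in the GPATCH1-dTAG line, against -0.01 for all genes tested across both lines. An unadjusted p under 0.05 was found for 12 of the 20 upward and for 0 downward, against 1.2% of all genes upward and 2.38% downward. In 11 of the 20, the libraries did not overlap in either line and were higher in dTAG-13, against 3.15% of all genes. The 8 enzymes from acetoacetyl-CoA to farnesyl diphosphate had a median of 0.27, with 5 of 8 at an unadjusted p under 0.05, and the 12 from squalene to cholesterol a median of 0.32, with 7 of 12. In the first arm, Idi1 had a log2 fold change of 0.42, Fdps of 0.37, Mvd of 0.23, Mvk of 0.16, Acat2 of 0.12 and Pmvk of -0.01. In the second arm, the values outside the named genes ran from -0.11 for Tm7sf2 over 0.06 for Ebp and 0.14 for Nsdhl to 0.34 for Sc5d.

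The mean level of the 20 enzymes was taken in each library as log2(CPM + 0.5) relative to the mean of the 8 libraries. It was -0.15 and -0.12 in DMSO and 0.12 and 0.10 in dTAG-13 in the DHX35-dTAG line. In the GPATCH1-dTAG line it was -0.13 and -0.11 in DMSO and 0.15 and 0.15 in dTAG-13. The 4 dTAG-13 libraries were above the 4 DMSO libraries, with replicates of a group close to each other. With each library left out in turn, the median of the list stayed between 0.27 and 0.32, and it was 0.27 without DMSO library 1 of the DHX35-dTAG line.

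**Figure D3:**
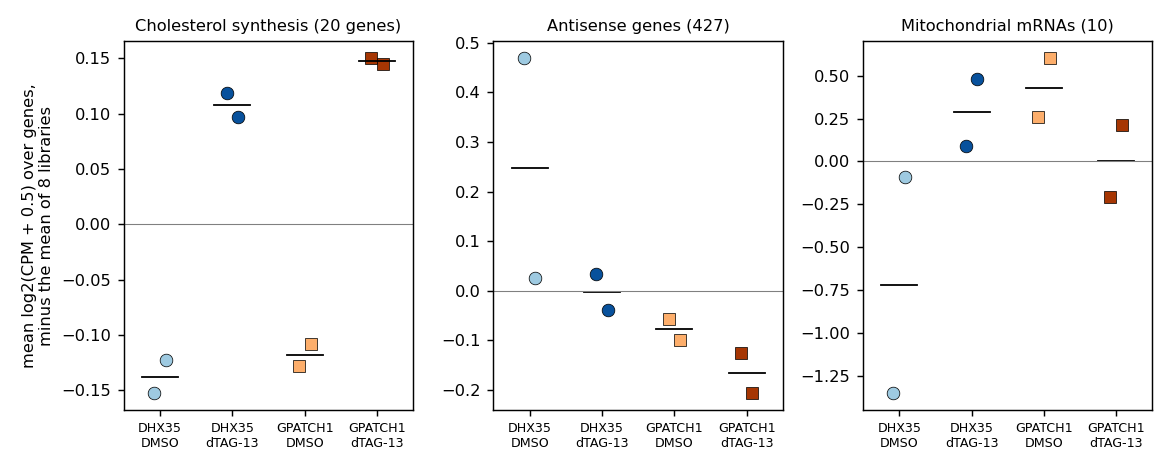
The y axis gives the mean log2(CPM + 0.5) over the genes of a list in each library, minus the mean of the 8 libraries, with a scale of its own in each panel. Points are libraries, 2 per group, and the bar is their mean. The cholesterol synthesis enzymes separate by treatment in both lines, the antisense genes have 1 high library at 0.47 (DMSO library 1 of the DHX35-dTAG line), and the mitochondrial mRNAs have the same library at -1.35.

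Among the 16 genes of sterol sensing and uptake, 2 had an unadjusted p under 0.05, Insig1 among them, and in 2 the libraries did not overlap in either line, all higher in dTAG-13, against 1.2% and 3.15% of all genes. The median of this list was 0.07 across both lines, 0.06 in the DHX35-dTAG line and 0.07 in the GPATCH1-dTAG line, with 14 of 16 above 0. On the log2 fold change scale, Srebf2, which encodes the SREBP that acts on sterol genes, was at 0.11 (standard error 0.06), Srebf1 at 0.06 (0.08), Scap at 0.01 (0.07), and the proteases Mbtps1 and Mbtps2 at 0.04 (0.05) and 0.05 (0.07). Insig2, the second retention protein, had a value of -0.17 (0.11) and Mylip, a ubiquitin ligase, of -0.30 (0.16). The 6 genes of sterol efflux and the LXR receptors that were tested had a median of 0.00, with 0 of 6 at an unadjusted p under 0.05. Abca1, the cholesterol exporter, had a value of -0.05 (standard error 0.06).

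Of the 19 genes of fatty acid synthesis and desaturation, 15 were above 0, against 48.1% of all genes, and 5 had an unadjusted p under 0.05, all higher in dTAG-13, against 1.2% of all genes. These were Lpin1 (a phosphatidate phosphatase, log2 fold change 0.23), Scd2 and Scd1 (stearoyl-CoA desaturases, 0.26 and 0.27), Fads2 (a fatty acid desaturase, 0.21) and Acaca (acetyl-CoA carboxylase, 0.19), each with an adjusted p of 0.96 (edgeR). Lpin1 was at 42.1 and 43.6 CPM in DMSO and at 49.2 and 49.6 CPM in dTAG-13 in the DHX35-dTAG line, and at 52.6 and 55.4 CPM and then 65.1 and 63.7 CPM in the GPATCH1-dTAG line. Its levels differed between the lines, and within each line the dTAG-13 libraries were the higher ones. Fasn, the fatty acid synthase, had a log2 fold change of 0.08. The median of the list was 0.09 across both lines, 0.21 in the DHX35-dTAG line and 0.09 in the GPATCH1-dTAG line. In the DHX35-dTAG line it was 0.06 without replicate 1 in DMSO, the library with the lowest level of this list. Across both lines, the median was 0.05 without that library and 0.17 without DMSO library 2 of the same line, and leaving out any of the GPATCH1-dTAG libraries gave values between 0.13 and 0.14.

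Spry4, a feedback inhibitor of FGF and MAP kinase signalling, was the gene outside the lipid lists among the 12 higher ones. It was at 56.8 and 58.2 CPM in DMSO and at 79.2 and 64.8 CPM in dTAG-13 in the DHX35-dTAG line, and at 58.1 and 56.4 CPM in DMSO and at 71.8 and 70 CPM in dTAG-13 in the GPATCH1-dTAG line. The 2 dTAG-13 libraries of the DHX35-dTAG line lay further apart than those of the other groups, and all 4 were above the DMSO libraries. Its list, of 21 immediate early genes and FGF targets tested, had a median of 0.04 with 13 above 0. With each library left out in turn, this median lay between 0.03 and 0.10. In that list 4 genes had an unadjusted p under 0.05, all higher, against 1.2% of all genes: Spry4 (0.32), Spry2 (0.19), Myc (0.17) and Nr4a1 (0.15). Egr1 (0.30, standard error 0.28), Fos (0.14, standard error 0.23) and Dusp6 (0.13, standard error 0.08) did not.

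The 12 genes that were lower in dTAG-13 had fewer reads, with a median level of 7.70 CPM against 72.5 CPM for the 12 higher ones, and 7 of them are protein coding. Firre, a long noncoding RNA of the X chromosome that takes part in nuclear organization, had the lowest p among genes that were lower. The gene spans 50555744 to 50635321, minus strand. Its level was 110.6 and 93.1 CPM in DMSO and 86.4 and 82.7 CPM in dTAG-13 in the DHX35-dTAG line, and 97.1 and 93.6 CPM in DMSO and 72.3 and 71.3 CPM in dTAG-13 in the GPATCH1-dTAG line. The DMSO libraries were all above the dTAG-13 libraries, with DMSO library 1 of the DHX35-dTAG line highest. The log2 fold change was -0.34 (standard error 0.07, 95% interval -0.49 to -0.18; adjusted p = 0.96, edgeR), a fold of 0.791.

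The other lower genes were Gm43019 (-0.90), D330041H03Rik (-0.58), Rapgefl1 (-0.73), the palmitoyltransferase gene Zdhhc24 (-0.45), Rgs9bp (-0.48), 1700030C10Rik (-0.26), Pigv (-0.49), which adds a mannose to GPI anchors, Zbed3 (-0.37), the ciliary kinase gene Nek8 (-0.39), Gm45266 (-0.86) and Ankrd16 (-0.30), each with an adjusted p of 0.96 (edgeR). The largest of these rested on few reads: Gm43019, a transcript inside Auts2 on the same strand, had 25 and 38 reads in DMSO and 13 and 12 in dTAG-13 in the DHX35-dTAG line, and 30 and 27 in DMSO and 19 and 17 in dTAG-13 in the GPATCH1-dTAG line. Gm45266, inside Rab11fip1, had between 8 and 24 reads per library. Reads of these transcripts and of the introns of their hosts cannot be told apart in counts per gene. None of the 25 lists had a member with an unadjusted p under 0.05 among genes lower in dTAG-13, against 2.38% of all genes. Of those 390 genes, 111 were among the 3275 with the lowest mean CPM and 17 among the 3274 with the highest.

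The genes of the degradation machinery that dTAG-13 uses had medians close to 0 across both lines. For the 14 genes of the cereblon ligase and tag machinery, the median log2 fold change was 0.02 and 0 of 14 had an unadjusted p under 0.05. Crbn (cereblon) had a value of 0.02 (standard error 0.10), Ddb1, its adaptor, of 0.03 (0.05) and Fkbp1a, the natural protein that the tag was made from, of -0.01 (0.07). The 32 proteasome subunits had a median of -0.02 across both lines and 0 of 32 at that threshold. Their median was -0.11 in the DHX35-dTAG line and 0.06 in the GPATCH1-dTAG line, with 10 of 32 in the same direction in both. In the DHX35-dTAG line it was 0.03 without DMSO library 1. Among responses to protein stress, Hsph1 was the 1 of 16 heat shock and folding genes with an unadjusted p under 0.05 (log2 fold change 0.16), Chac1 the 1 of 20 targets of the integrated stress response (0.34), and 0 of 15 genes of the endoplasmic reticulum stress response met it. Trp53 was the 1 of 19 genes of p53 and its targets (0.13), in a list whose median was -0.04. With 1.2% of all genes higher and 2.38% lower at this threshold, nothing is read from single genes in lists of this size. Libraries that did not overlap in either line and were higher in dTAG-13 were found for 4 of the 20 targets of the integrated stress response, 2 of the 16 heat shock and folding genes, 2 of the 15 genes of endoplasmic reticulum stress, 2 of the 32 proteasome subunits and 1 of the 19 genes of the p53 list, against 3.15% of all genes, and in 0 of these lists was any lower. Among the 3274 genes with the highest mean CPM, 224 were higher and 28 lower in this sense. The part of expression in the counts of these lists was not tested.

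Genes of splicing, the process in which both tagged proteins act, had medians near 0. The 21 spliceosomal helicases and partners, DHX35 and GPATCH1 included, had a median of 0.02 with 0 at an unadjusted p under 0.05, and Dhx38 (0.10) and Tfip11 (0.10) were the 2 whose libraries did not overlap in either line and were higher in dTAG-13, against 3.15% of all genes. The 40 core spliceosome proteins had a median of 0.04, and Snrpd1 (0.14) was the 1 at that threshold, against 1.2% of all genes higher and 2.38% lower. In 5 of the 40, the libraries did not overlap in either line and were higher in dTAG-13, against 3.15% of all genes. These were Snrpd1, Sf3a1 (0.14), Sf3b4 (0.11), Prpf19 (0.09) and Xab2 (0.06). In 0 of the 40 they were lower, against 2.82% of all genes. The part of expression in these counts was not tested either. The 18 SR proteins and their kinases had a median of -0.04 and the 20 nonsense-mediated decay factors and host genes of -0.03, both with 0 members at that threshold. Counts per gene carry no splice junctions, so these values bear on expression only. Of the 18 naive pluripotency genes 0 met the threshold (median 0.04), and of the 18 formative and lineage genes 1 did, Gata6 (0.65), at between 0.836 and 2.09 CPM, against 1.2% of all genes higher. In the formative and lineage list 11 genes were above 0 and 7 below, and nothing is read from this single gene. The 12 Wnt targets, the 32 ribosomal protein genes, the 20 genes of glycolysis and hypoxia, the 14 of the NRF2 and AhR response and the 15 replication-dependent histone genes had medians between -0.06 and 0.04 and no member at that threshold.

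**Figure D4:**
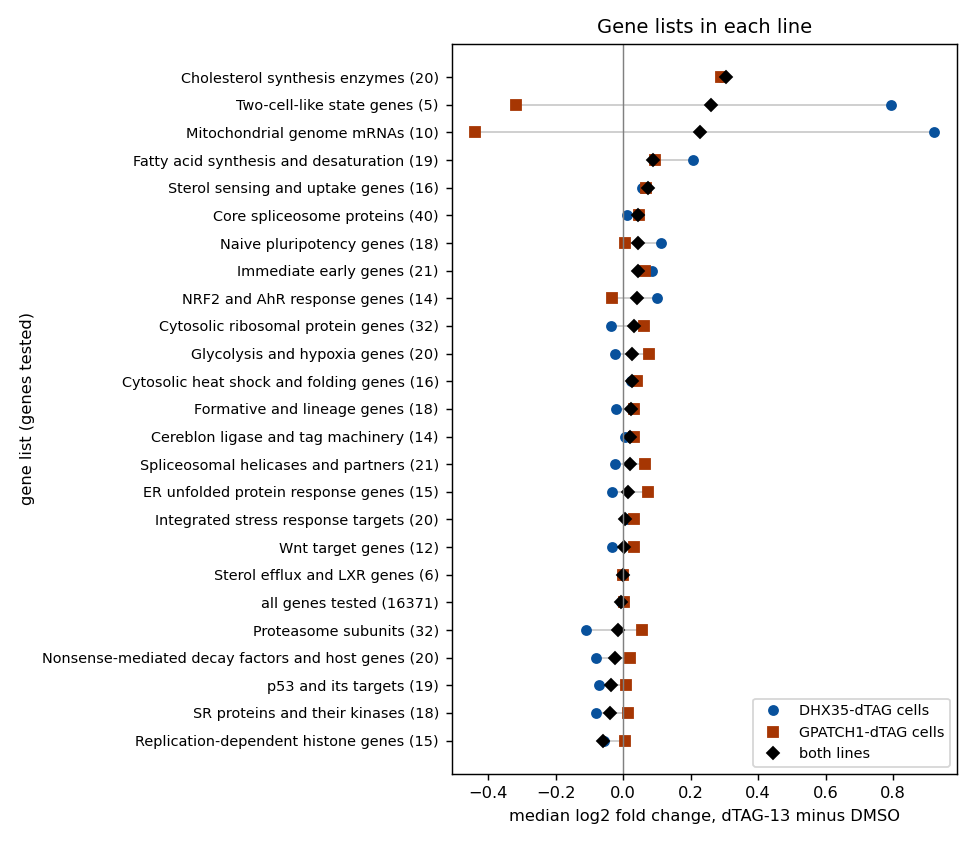
The x axis gives the median log2 fold change (dTAG-13 minus DMSO) of each gene list (y axis, genes tested in brackets), in the DHX35-dTAG line (circles), the GPATCH1-dTAG line (squares) and both lines together (diamonds). The cholesterol synthesis enzymes have the highest median in both lines together, at 0.30, with the lines at the same place, while the mitochondrial mRNAs (0.92 and -0.44) and the 2-cell-like state genes (0.79 and -0.32) have medians of opposite sign in the lines.

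A median away from 0 across both lines was not always shared. The 10 mRNAs of the mitochondrial genome that were tested had a median of 0.23 across both lines, but 0.92 in the DHX35-dTAG line and -0.44 in the GPATCH1-dTAG line, and 0 of the 10 had the same direction in both. Without DMSO library 1 of the DHX35-dTAG line, in which these mRNAs took 0.272% of the counts against 0.758% to 1.13% in the others, the median across both lines was -0.12. It was 0.02 without dTAG-13 library 2 of that line, 0.45 without DMSO library 2 of the GPATCH1-dTAG line and 0.51 without dTAG-13 library 1 of the GPATCH1-dTAG line. The 5 genes of the 2-cell-like state that were tested had a median of 0.26 across both lines, 0.79 in the DHX35-dTAG line and -0.32 in the GPATCH1-dTAG line, and across both lines it was 0.02 without DMSO library 1 of the DHX35-dTAG line, 0.02 without dTAG-13 library 1 of that line and 0.08 without its dTAG-13 library 2.

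Whether the lines responded differently was tested for every gene. By the edgeR quasi-likelihood F test, adjusted by Benjamini-Hochberg 0 genes passed, 640 had an unadjusted p under 0.05 (3.91%), and DESeq2 called 9. None of the 24 named genes was among the 640, which the rule that chose them, the same direction in both lines, largely fixes. For Insig1, the response in the GPATCH1-dTAG line minus that in the DHX35-dTAG line was 0.03 with a standard error of 0.11, and for Cyp51 it was -0.02 with a standard error of 0.13. At this precision, differences of that size between the lines were not detectable.

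Over all genes tested, those in the lists included, the genes whose libraries did not overlap in either line were counted. With dTAG-13 they were higher for 516 genes (3.15%) and lower for 461 (2.82%). They were unevenly spread over expression. Among the 3274 genes with the highest mean CPM, 224 were higher and 28 lower, with a median log2 fold change of 0.03, and among the 3275 with the lowest mean CPM, 57 were higher and 122 lower, with a median of -0.09. Medians of protein-coding genes across both lines followed the number of annotated introns, which is tied to length and expression. The 289 without introns had a median of -0.07 and the 1642 with more than 20 introns a median of 0.03. These were -0.11 and 0.03 in the DHX35-dTAG line and -0.02 and 0.02 in the GPATCH1-dTAG line. In the GPATCH1-dTAG line, the 1153 with 1 to 2 introns were lower than those without, at -0.04. The part of expression in the order by introns was not tested.

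**Figure D5:**
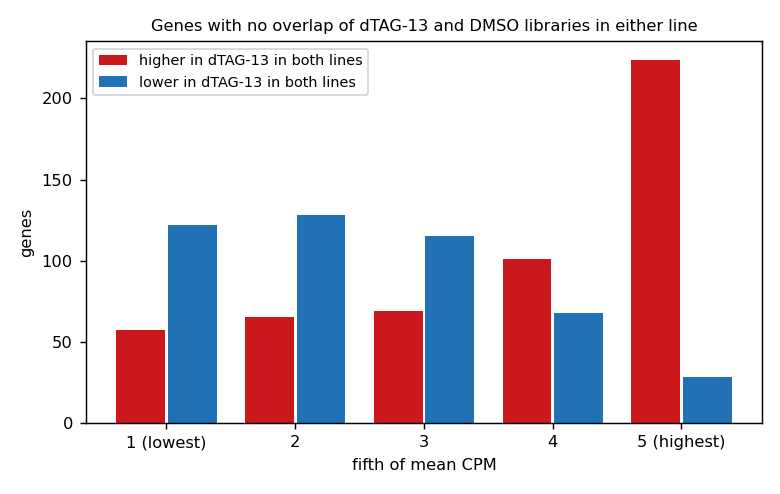
Bars count the genes whose dTAG-13 and DMSO libraries did not overlap in either line, higher (red) or lower (blue) in dTAG-13 in both lines, for 5 equal bins of mean CPM on the x axis. The highest bin holds 224 higher and 28 lower genes, and the lowest bin 57 higher and 122 lower genes.

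Several noncoding classes had medians below that of protein-coding genes, whose median log2 fold change across both lines was 0.00 (12776 genes). In the lowest of the 5 bins of mean CPM, protein-coding genes had a median of -0.08 and antisense genes of -0.31. In the next bin these were -0.03 and -0.19. The part of expression in the other noncoding classes was not tested. The 427 antisense genes had a median of -0.26, with 344 below 0, 31 at an unadjusted p under 0.05 downward and 0 upward, against 2.38% and 1.2% of all genes. As the strand setting of the counting is not given, reads of these genes and of the genes they overlap cannot be told apart. This median was -0.32 in the DHX35-dTAG line and -0.12 in the GPATCH1-dTAG line. Their mean level was 0.47 and 0.02 in DMSO and 0.03 and -0.04 in dTAG-13 in the DHX35-dTAG line, on the scale used above for the cholesterol enzymes. In the GPATCH1-dTAG line it was -0.06 and -0.10 in DMSO and -0.13 and -0.21 in dTAG-13. DMSO library 1 of the DHX35-dTAG line was thus far above the rest, and without it the median of the antisense genes was -0.08 across both lines and -0.02 in the DHX35-dTAG line. Across both lines it was -0.40 without DMSO library 2 of that line and -0.11 by limma-voom with sample quality weights. The 49 lncRNAs with a bidirectional promoter had a median of -0.26, with -0.23 in each line, and the 321 lincRNAs a median of -0.12, with -0.01 in the DHX35-dTAG line and -0.19 in the GPATCH1-dTAG line.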

How the data were processed

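Total RNA of the 8 samples was depleted of ribosomal RNA by the authors, mixed with human DLD-1 RNA as a spike-in and made into stranded libraries. The submitters' processing notes name FastQC 0.11.9, Trim Galore 0.6.6, STAR 2.7.5c, DESeq2 1.26.0 and the genomes mm10 and hg19. Raw, whole-number counts for each gene were deposited, in a table for each library. The counting program, annotation and strand setting are not given in the sources used here. Reads of the spike-in were not used here.

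Counts were tested in R 4.3.3 with edgeR 4.0.16 (filterByExpr on the 4 groups, TMM, glmQLFit and glmQLFTest, Benjamini-Hochberg adjustment, threshold 0.05). The shared response came from a model with line and treatment, and each line's response and the difference between lines from a model with 1 term per group, both over all 8 libraries. The standard error is the log2 fold change over the root of its F, and the 95% intervals use the same F test. edgeR put the common dispersion at 0.0151, which is a 12.3% coefficient of variation between replicates. Per gene, the chi-square between the libraries of a group was between 5.32 and 132, against 1 for sampling noise, so no library was a copy. Annotation came from GENCODE M21 (GRCm38), which had 1 unambiguous entry for 15986 of the tested genes, and promoter sequences from RefSeq (GRCm38.p6). The script was tested on simulated data.

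The named genes were Dhx35, Gpatch1, members of the 25 lists and, in each direction, the 12 genes of lowest p with a mean of at least 1 CPM and no overlap between treatments in either line; single values of some of them are not reported here. The comparison and the lists were chosen with earlier results of these data known, and the sterol lists in particular are not independent evidence of their direction. Alternatives were DESeq2 1.42.0, edgeR with size factors of DESeq2, no filter, a minimum of 10 counts per library, a block for the replicate number, a robust fit, limma-voom (limma 3.58.1) with sample quality weights, removal of the 2 most highly counted genes, the 4 libraries of a line alone, and each library left out. The medians without a library and the counts of genes without overlap under other settings were added after seeing the data.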

Additional observations from a re-analysis of the deposited data

Results flagged for a closer look

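In 13 of 104 sets of 4 libraries in one treatment, which mix both lines, 1 library lay far from the others, judged by its gap to the nearest library as a share of the range. Chance flags about 1 in 20 such sets. DMSO library 1 of the DHX35-dTAG line was the library concerned for 7 of them: it was highest among the DMSO libraries for 1700030C10Rik (gap 0.854 of the range), the proteasome subunits (0.921), the replication-dependent histone genes (0.945) and the share of counts on small RNA genes (0.955), and lowest for Sqle (0.838), the 2-cell-like state genes (0.857) and the share of counts on mitochondrial mRNAs (0.838). DMSO library 2 of the GPATCH1-dTAG line was highest in the share of the 2 most highly counted genes (0.861), and DMSO library 2 of the DHX35-dTAG line was lowest for Nek8 (0.984). Among the dTAG-13 libraries, replicate 1 of the DHX35-dTAG line was highest for Nek8 (0.832) and for the fatty acid genes (0.860) and lowest for the heat shock and folding genes (0.883), and replicate 2 of the DHX35-dTAG line was highest for Pigv (0.924).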

How the results depend on the processing

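None of the 24 named genes changed direction under the 16 alternatives, which the rule that chose them, no overlap in the same direction in both lines, largely fixes. Gm45266 had a value in 15 of the alternatives, as it did not pass the minimum of 10 counts in every library. Medians of lists that lay near 0 changed sign in places when a library was left out, and that of the mitochondrial mRNAs was -0.12 without DMSO library 1 of the DHX35-dTAG line. For the shared response, 0 genes were called by edgeR, 4 by DESeq2, 9 by limma-voom with sample quality weights and 80 without the expression filter (20 higher, 60 lower, 9 of them on the sterol lists). Leaving out each library in turn gave 0 to 8 genes, and the 8 came without DMSO library 1 of the DHX35-dTAG line. For the DHX35-dTAG line alone, 0 genes were called by edgeR, 1 by DESeq2, 345 without the filter, 1 with the 4 libraries of the line alone and 0 to 4949 with a library left out. The 4949 came without DMSO library 2, which leaves the library that stands apart as the line's only control, assumed to vary like the other groups. For the GPATCH1-dTAG line the count was 0 by edgeR, 21 without the filter, 35 by limma-voom, 127 with the 4 libraries of the line alone and 0 to 51 with a library left out, where 51 came without either DMSO library of the DHX35-dTAG line. For the difference between the lines it was 0 by edgeR, 9 by DESeq2, 140 without the filter and 0 to 3592 with a library left out (3592 without DMSO library 2 of the DHX35-dTAG line). The counts of genes without overlap became 1247 higher and 1088 lower without DMSO library 1 of the DHX35-dTAG line, since a single control then remains in that line. The causes of the other moves were not tested.

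Whether replicate numbers pair the samples cannot be settled from 2 libraries per group. The deviations of same-numbered libraries correlated at 0.16 within the DHX35-dTAG line and at 0.05 within the GPATCH1-dTAG line. Over all pairs of groups they correlated between 0.04 and 0.27. A replicate block gave 0 genes for the shared response, with 602 at an unadjusted p under 0.05, and 4 genes for the difference between the lines.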
